A study of Mus musculus with 14 samples.

Results

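The acute phase response genes described here are 32 mouse genes picked by name: the serum amyloid A genes, the orosomucoids, 11 further plasma proteins of inflammation, and the cytokines, receptors, signalling genes and S100 proteins that go with them. All 32 were found among the 19660 genes counted in liver, and 25 among the 20203 genes counted in kidney. RNA was sequenced from the liver and kidney of adult male mice of 12 weeks that carried the human angiotensinogen transgene with the haplotype labelled Hap -6A, fed either normal chow or a diet high in salt, called normal diet and high salt below. All 14 libraries come from this transgenic genotype, so diet is the only factor compared within a tissue, and no group without the transgene was analysed here. Liver had 4 libraries on each diet and kidney 3 on each diet. The study asked how high salt affects transcription of the human transgene and of other genes in both organs. Normal diet liver libraries are numbered 1 to 4 after their titles, and HS5, HS6, HS7 and HS8 name the high salt liver libraries by their columns, since no titled number matches these. Levels are given in CPM, the counts of a gene per 1000000 counts after scaling the libraries to each other.

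Infection or tissue injury makes macrophages release interleukin 1, interleukin 6 and related cytokines, and hepatocytes answer by changing what they secrete into plasma. Interleukin 6 binds its receptor and the shared subunit gp130, which activates the transcription factor STAT3, while interleukin 1 acts through NF-kB, and both act with C/EBP factors on the promoters of acute phase genes. The secreted products include serum amyloid A, an apolipoprotein of high density lipoprotein, and haptoglobin and hemopexin, which bind free hemoglobin and heme. Serum amyloid A and serum amyloid P are major acute phase proteins of the mouse, whereas C-reactive protein responds little in this species.

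Promoter sequence is shown first for 6 members: 5 of the serum amyloid A and orosomucoid families, whose levels are compared below, and the chemokine gene Cxcl1, whose window held the NF-kB motif. RefSeq promoter windows (GRCm38.p6) were found for 26 of the 32 genes, in 30 windows, and the 250 bases before each start site were searched on both strands. The printed stretches run 5′ to 3′ on the strand of the gene, end before the annotated transcript and carry motif matches in capitals: TTGCNNAA, the core of C/EBP sites, in the first 5, and in Cxcl1 the hexamer CTGGGA and the NF-kB motif (GGGA and TTCC with any 2 bases between them).
Saa1 promoter, chr7:46742981-46743230, minus strand: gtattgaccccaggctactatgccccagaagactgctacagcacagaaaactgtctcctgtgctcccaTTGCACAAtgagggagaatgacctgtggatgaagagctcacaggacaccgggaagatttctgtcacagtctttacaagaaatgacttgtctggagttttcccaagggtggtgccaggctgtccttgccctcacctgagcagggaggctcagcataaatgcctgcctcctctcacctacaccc
Saa2 promoter, chr7:46751583-46751789, plus strand: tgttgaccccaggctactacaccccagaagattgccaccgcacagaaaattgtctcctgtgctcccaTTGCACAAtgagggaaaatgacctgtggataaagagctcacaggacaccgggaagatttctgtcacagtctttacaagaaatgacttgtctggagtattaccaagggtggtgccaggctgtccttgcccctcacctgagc
Saa3 promoter, chr7:46715701-46715926, minus strand: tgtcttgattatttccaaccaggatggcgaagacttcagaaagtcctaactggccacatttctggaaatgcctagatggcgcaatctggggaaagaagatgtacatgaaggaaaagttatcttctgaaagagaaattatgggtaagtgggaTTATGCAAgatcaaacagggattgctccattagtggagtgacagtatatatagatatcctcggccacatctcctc
Orm2 promoter, chr4:63362199-63362448, plus strand: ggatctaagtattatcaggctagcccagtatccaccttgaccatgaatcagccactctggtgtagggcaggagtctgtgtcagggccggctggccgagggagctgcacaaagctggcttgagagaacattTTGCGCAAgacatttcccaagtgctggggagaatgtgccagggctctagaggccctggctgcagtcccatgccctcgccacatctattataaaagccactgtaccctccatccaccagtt
Orm3 promoter, chr4:63355908-63356157, plus strand: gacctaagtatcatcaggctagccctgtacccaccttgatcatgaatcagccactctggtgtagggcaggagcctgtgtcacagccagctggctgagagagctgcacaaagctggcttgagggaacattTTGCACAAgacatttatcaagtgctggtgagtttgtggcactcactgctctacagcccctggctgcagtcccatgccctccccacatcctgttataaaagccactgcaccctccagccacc
Cxcl1 promoter, chr5:90890995-90891240, plus strand: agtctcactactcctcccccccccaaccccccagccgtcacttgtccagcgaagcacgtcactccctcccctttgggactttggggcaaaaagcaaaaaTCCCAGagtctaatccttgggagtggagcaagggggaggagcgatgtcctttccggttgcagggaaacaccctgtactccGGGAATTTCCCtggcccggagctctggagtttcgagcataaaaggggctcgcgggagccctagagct
The C/EBP core was found in 12 of the 30 windows, those of Saa1, Saa2, Saa3, Saa4, Orm2, Orm3, Hpx, Cp, Lcn2, Il1r1, Steap4 and S100a9, and in 9.56% of all 32851 promoter windows of the same length. Saa1 and Saa2 hold it as the same 8 letters, on promoters that are 94.8% identical over 250 bases. The Orm2 and Orm3 promoters were 85.5% identical. The Lcn2 window lies inside the annotated gene and is not printed. TTCNNNGAA, the STAT motif, was found in 4 windows (Apcs, Itih4, Socs3 and Steap4) against 7.02% of all windows, and CTGGGA, the core of the interleukin 6 element, in 13 windows of 11 genes against 27% of all windows. The NF-kB motif was found in the Cxcl1 window, where its 2 matches overlap, and in 1.21% of all windows. These matches describe letters in the windows and do not show that a factor binds there.

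The Saa genes lie together on chromosome 7 of GRCm38, with Saa3 at chr7:46711998-46715700, Saa4 at chr7:46727998-46732603, Saa1 at chr7:46740497-46742980 and Saa2 at chr7:46751790-46754313. The orosomucoids lie together on chromosome 4, with Orm1 at chr4:63344560-63348163, Orm3 at chr4:63356162-63359511 and Orm2 at chr4:63362449-63365878. The longest protein-coding transcripts of Saa1 and Saa2 were 87.3% identical, and those of Orm1 and Orm2 91%. Reads shared by such copies were divided by estimation in the deposited counts, so how a total is split between Saa1 and Saa2, or among the orosomucoids, is uncertain.

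Liver libraries held 37267778 to 51487382 counts and kidney libraries 16046094 to 22004927. Hepatocyte markers (5 genes) summed to 42999 to 95344 CPM in liver and 1517 to 2243 CPM in kidney. The kidney sum was mostly Cyp2e1 (787 to 1523 CPM) and Ass1 (485 to 673 CPM). In kidney Alb was at 2.70 to 35.7 CPM and Cps1 at 0 to 2.87 CPM, so the sum there does not measure hepatocytes. Most of the liver sum was Alb, which is also a negative acute phase gene and was lowest in normal diet library 4. The other 4 hepatocyte markers summed to 10558 CPM in library 4, 13183 to 14626 CPM in normal diet libraries 1 to 3 and 8309 to 10118 CPM on high salt. Kidney markers (8 genes) summed to 3466 to 5397 CPM in kidney. In liver 6 of the 8 were in the table and summed to at most 96.8 CPM, of which Nphs1 gave 23.5 to 87.97 CPM, a level like its 10.3 to 58.5 CPM in kidney, and the other 5 gave 0.547 to 8.81 CPM, highest in HS7. Transcripts of the mitochondrial genome took 2.06% to 2.30% of the counts of normal diet liver libraries 1 and 2, 29.6% of library 3, 18.7% of library 4 and 11.3% to 19.2% of the high salt libraries. HS5 and HS6 were much more alike than other liver pairs of a diet, with a chi-square per gene of 1.59 against 9.83 to 62.8. The labels give no batch and do not say that libraries came from separate animals, so p-values measure the spread between these libraries, which may be partly technical. In whole tissue, fewer cells of a type and less RNA per cell cannot be told apart.

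Normal diet liver library 4 stood far above the other 7 liver libraries in these genes. The 32 genes took 8.88% of all its counts, against 1.59%, 1.64% and 0.891% in normal diet libraries 1, 2 and 3 and 0.800% to 0.848% in the high salt libraries. Its CPM was over 2-fold that of the highest other liver library in 28 of the 32 genes, and in 1.35% of the 12190 liver genes with a mean of at least 50 counts. The exceptions were Crp at 1.42 times, the interleukin 6 receptor genes Il6st at 1.10 and Il6ra at 0.958 times, and Il1b at 0.883 times the highest other library. Library 4 was known to stand apart when the 32 genes were chosen, so these numbers are a description. With library 4 set aside, the other 7 libraries were compared in the same way. Normal diet library 2 was over 2-fold the highest of the other 6 in Saa2 (2.58 times) and HS7 in Socs3 (2.48 times), and no other member passed this mark in any of the 7. Of the 12190 genes, 0.18%, 0.0902% and 0.295% passed it in normal diet libraries 1, 2 and 3, 0% in HS5 and HS6, 0.189% in HS7 and 0.23% in HS8. Because 1 library can set the mean of its diet, each liver comparison is given with all 8 libraries and without library 4.

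**Figure D1:**
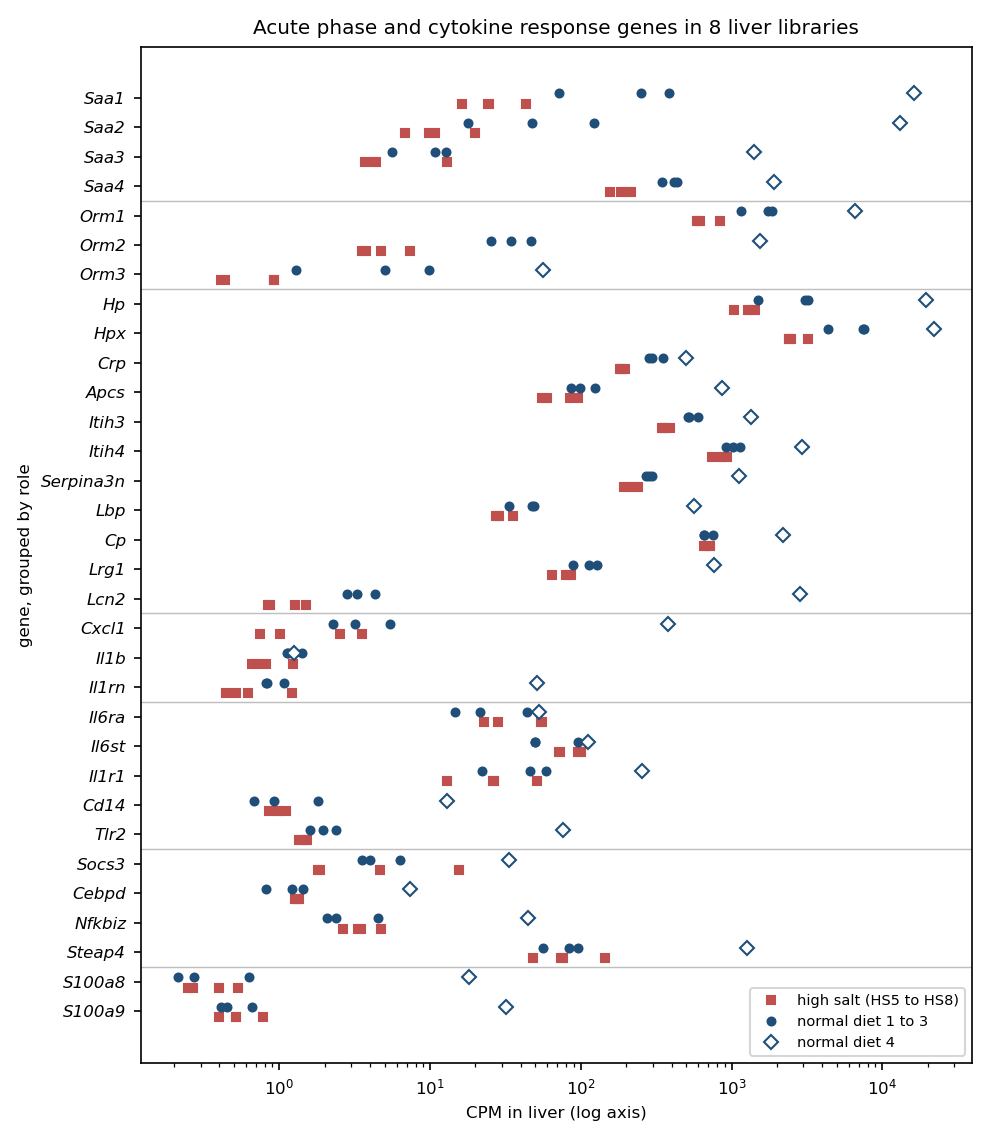
CPM of the 32 genes (log axis) in each of 8 liver libraries, grouped by role with grey lines between roles; circles are normal diet libraries 1 to 3, the open diamond is normal diet library 4 and squares are the 4 high salt libraries. Library 4 lies to the right of every other library in 30 of 32 genes, all but Il1b and Il6ra.

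With all 8 liver libraries, no member passed the test of high salt against normal diet, although 30 of 32 log2 fold changes were below 0 (52% of all genes tested). The median log2 fold change was -2.05, against -0.023 over all 15130 genes. In edgeR's quasi-likelihood test 0 of 32 members had a Benjamini-Hochberg adjusted p under 0.05, where 1% of all genes had (152 genes), and the members' adjusted p ran from 0.0661 for Crp to 0.771 for Il6st. An unadjusted p under 0.05 was found for 24 members, all lower on high salt, and for 21.2% of all genes. DESeq2 called 5 members lower, Crp, Hpx, Itih3, Orm1 and Orm3, and gave no adjusted p for 18 others. The diets did not overlap in 13 members, each lower on high salt, against 12.5% of all genes in either direction and 6.05% lower.

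Without library 4, 8 of 32 members fell on high salt, all of them secreted proteins: Saa1, Saa4, Orm1, Orm2, Orm3, Hpx, Crp and Lcn2. Of all 15270 genes tested in these 7 libraries, 2.68% were called (409 genes) and 1.38% were called lower. The members' median log2 fold change was -0.51, against -0.0021 over all genes, with 25 below 0 where 50.2% of all genes were. The 13 members whose diets did not overlap stayed the same. Leaving out library 4 could not change them, since it was the lowest normal diet library in none of the 32. Over all genes the shares were 21.5%, and 10.1% lower. Some marker sums of other cells also differed between the diets without overlap in the same 7 libraries. Erythroid markers (5 of 5) summed to 725 to 1937 CPM on the normal diet and 271 to 719.9 CPM on high salt. Monocyte markers (3 of 3, nearly all Lyz2) summed to 53.8 to 93.7 and 26.6 to 53.0 CPM, and stellate cell markers (4 of 4) to 91.6 to 144 and 148 to 174 CPM. Without Lyz2 the monocyte sums overlapped, at 0.627 to 1.29 and 0.850 to 1.78 CPM. Without Dcn the stellate cell sums overlapped, at 33.1 to 63.2 and 57.8 to 79.1 CPM. Without Hbb-bs the erythroid sums still did not overlap, at 288 to 693 and 151 to 269 CPM. Summed hepatocyte markers were higher on high salt (57949 to 64066 against 76132 to 95344 CPM) with Alb and lower without it, as given above. None of these markers was at 0 in any library, and their part in the members' fall was not tested. The calls rest on HS5 and HS6 as separate libraries: with this pair summed to 1 library, 13 genes and 1 member, Orm2, were called (edgeR log2 fold change -2.82, adjusted p = 0.0492). With library 3 as the lone normal diet library, assumed to vary like the high salt group, the members' median was -0.55. A lone library shows no spread of its own, so that fit cannot decide whether the calls rest on normal diet libraries 1 and 2.

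**Figure D2:**
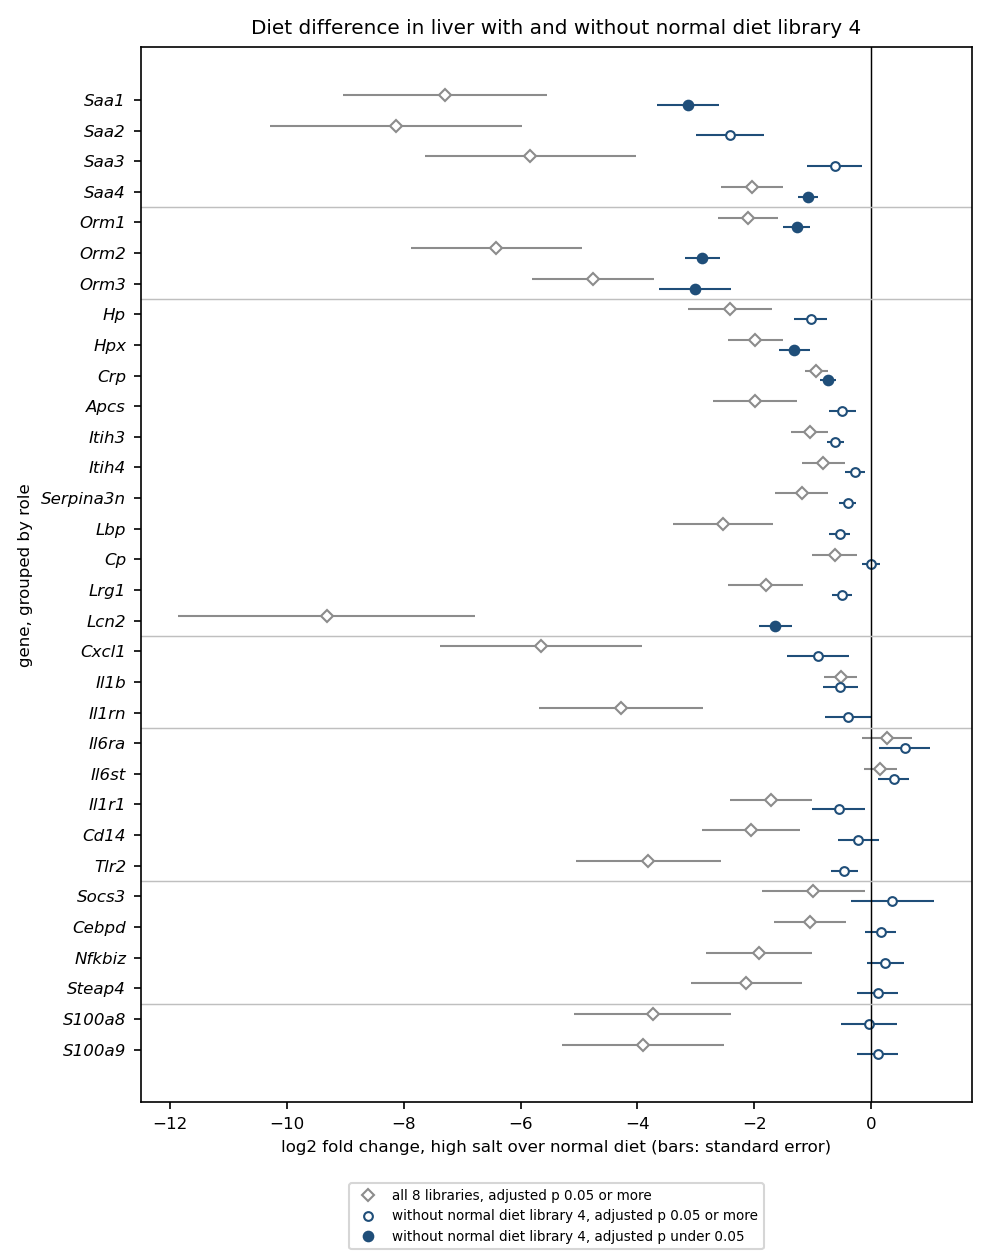
log2 fold change of high salt over normal diet in liver for the 32 genes, with bars for the standard error; grey diamonds use all 8 libraries, circles leave out normal diet library 4, and filled circles mark an edgeR adjusted p under 0.05. The 8 filled circles lie below 0, and the 4 intracellular response genes move from below to above 0 when library 4 is left out.

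All 4 serum amyloid A genes had log2 fold changes below 0 with and without library 4, and 2 of them passed the test without it. Saa1, the main circulating form with Saa2, was at 71.3, 387 and 251 CPM in normal diet libraries 1, 2 and 3, at 16237 CPM in library 4, and at 24.4, 24.0, 43.4 and 16.4 CPM in HS5 to HS8. Every normal diet library lay above every high salt library, and library 4 was 42.0 times the next highest. Without library 4 the means were 236 ± 158 CPM for the normal diet (SD, n = 3) and 27.1 ± 11.5 CPM for high salt (SD, n = 4), and Saa1 fell by 3.14 on the log2 scale (SE 0.53, edgeR adjusted p = 0.0347). With all 8 libraries its log2 fold change was -7.29 (SE 1.75, edgeR adjusted p = 0.0773).

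Saa2 was at 17.9, 123 and 47.6 CPM in normal diet libraries 1, 2 and 3, 13098 CPM in library 4, and 9.89, 10.7, 19.9 and 6.85 CPM in HS5 to HS8. Normal diet library 1 lay below HS7, so the diets overlapped, and the log2 fold change of -2.42 without library 4 did not pass the edgeR test (SE 0.59, adjusted p = 0.0611). Saa3, a form that in the mouse is made by macrophages and fat cells as well as liver, was at 10.8, 12.7 and 5.60 CPM in normal diet libraries 1, 2 and 3, 1414 CPM in library 4, and 4.28, 3.69, 13.0 and 4.34 CPM on high salt. HS7 lay above normal diet libraries 1 to 3, and without library 4 the log2 fold change was -0.62 (SE 0.47, edgeR adjusted p = 0.401). Saa4, the constitutive form, was steadier, at 346, 435 and 412 CPM in normal diet libraries 1, 2 and 3, 1925 CPM in library 4, and 216, 200.01, 186 and 156 CPM on high salt. Its diets did not overlap, and it fell by 1.08 on the log2 scale without library 4 (SE 0.17, edgeR adjusted p = 0.028). Library 4 thus exceeded the next library 4.43-fold in Saa4, 107-fold in Saa2 and 109-fold in Saa3.

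All 3 orosomucoids, plasma proteins also called alpha-1-acid glycoproteins that bind drugs and lipids, had diets that did not overlap, and all 3 passed the test without library 4. Orm2 was at 34.6, 46.8 and 25.3 CPM in normal diet libraries 1, 2 and 3, 1547 CPM in library 4, and 4.76, 3.77, 7.32 and 3.55 CPM in HS5 to HS8. The lowest normal diet library was 3.45 times the highest high salt library, and Orm2 had the smallest adjusted p of the 32 genes without library 4 (log2 fold change -2.88, SE 0.30, edgeR adjusted p = 0.00929). Orm2 was also the member that stayed called with HS5 and HS6 summed.

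Orm1, by far the most abundant of the 3, was at 1746, 1854 and 1149.8 CPM in normal diet libraries 1, 2 and 3, 6613 CPM in library 4, and 614, 586, 839 and 599 CPM on high salt, and it fell by 1.27 on the log2 scale without library 4 (SE 0.23, edgeR adjusted p = 0.0392). Orm3 was scarce, at 9.80, 5.01 and 1.29 CPM in normal diet libraries 1, 2 and 3, 56.4 CPM in library 4, and 0.408, 0.435, 0.915 and 0.918 CPM on high salt, with a log2 fold change of -3.02 without library 4 (SE 0.61, edgeR adjusted p = 0.0438). In both genes normal diet library 3, the one with the highest mitochondrial share, lay nearest to the high salt libraries. With library 3 as the lone normal diet library, the fold change shrank to -0.81 for Orm1 and -0.95 for Orm3, the smallest of the alternatives tried.

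Of the 11 other secreted proteins, all had a log2 fold change below 0 with and without library 4, and 3 passed without it. Hpx encodes hemopexin, the heme carrier, and was at 7491, 7536 and 4350.5 CPM in normal diet libraries 1, 2 and 3, 22105 CPM in library 4, and 2388, 2422, 3222 and 2469 CPM on high salt. The diets did not overlap, and the mean without library 4 was 6459 ± 1826 CPM (SD, n = 3) against 2625 ± 399 CPM on high salt (SD, n = 4), a fall of 1.31 on the log2 scale (SE 0.26, edgeR adjusted p = 0.0423). Hp, haptoglobin, likewise had its lowest normal diet level in library 3, at 3094, 3193 and 1499 CPM in normal diet libraries 1, 2 and 3, 19524 CPM in library 4, and 1292, 1432, 1350.4 and 1040.0 CPM on high salt. Library 3 was only 1.05 times the highest high salt library, and the log2 fold change of -1.03 without library 4 did not pass (SE 0.28, edgeR adjusted p = 0.0739).

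Crp, C-reactive protein, hardly stood out in library 4. It was at 298, 282 and 352 CPM in normal diet libraries 1, 2 and 3, 502 CPM in library 4, and 189, 181, 196 and 185 CPM on high salt, without overlap and with little spread among the high salt libraries. Its log2 fold change was -0.93 with all 8 libraries (SE 0.20, edgeR adjusted p = 0.0661) and -0.74 without library 4 (SE 0.14, edgeR adjusted p = 0.0405). Over 20 alternative settings it stayed between -1.18 and -0.72. Apcs, serum amyloid P, the related pentraxin, was at 124, 85.6 and 98.7 CPM in normal diet libraries 1, 2 and 3, 858 CPM in library 4, and 59.3, 55.1, 95.0 and 85.3 CPM on high salt, where HS7 lay above normal diet library 2 and the test without library 4 was not passed (log2 fold change -0.49, SE 0.23, edgeR adjusted p = 0.195).

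Lcn2, lipocalin 2, which withholds iron from bacteria, stood out most in library 4. It was at 3.26, 2.81 and 4.31 CPM in normal diet libraries 1, 2 and 3, 2848 CPM in library 4, and 0.834, 0.870, 1.50 and 1.27 CPM on high salt. Library 4 was 661 times the next highest library, the largest ratio of the 32 genes. The remaining normal diet libraries still lay above all high salt libraries, with 3.46 ± 0.771 CPM (SD, n = 3) against 1.12 ± 0.321 CPM (SD, n = 4), and Lcn2 fell by 1.64 on the log2 scale without library 4 (SE 0.29, edgeR adjusted p = 0.0364). With all 8 libraries the log2 fold change of -9.32 had a SE of 2.54 (edgeR adjusted p = 0.103).

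The other 6 secreted proteins did not pass in either edgeR fit. Itih3, a heavy chain that links to hyaluronan, came closest without library 4 (log2 fold change -0.61, SE 0.15, edgeR adjusted p = 0.0592), with 518, 519 and 602 CPM in normal diet libraries 1, 2 and 3 and 359.7, 347, 389 and 349 CPM on high salt, and no overlap. Serpina3n, an antiprotease, and Lrg1, a leucine-rich glycoprotein, also had no overlap, with log2 fold changes of -0.40 and -0.50 without library 4. Lbp, the protein that hands bacterial lipopolysaccharide to Cd14, was at 47.1, 33.4 and 49.0 CPM in normal diet libraries 1, 2 and 3, 563 CPM in library 4, and 28.4, 27.4, 35.5 and 28.5 CPM on high salt, where HS7 exceeded normal diet library 2. For Itih4 the log2 fold change without library 4 was -0.27. Cp, ceruloplasmin, the copper-carrying ferroxidase, differed from the rest: without library 4 its diets lay at 689.5 ± 57.0 CPM (SD, n = 3) and 693 ± 33.6 CPM (SD, n = 4), with a log2 fold change of -0.0031 (SE 0.15). Library 4 held 2186 CPM of Cp, 2.89 times the next library.

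The ligands and the interleukin 1 antagonist were scarce outside library 4, and none passed in either fit. Cxcl1, a chemokine that draws neutrophils, was at 5.42, 3.19 and 2.26 CPM in normal diet libraries 1, 2 and 3, 382 CPM in library 4, and 1.01, 0.746, 3.51 and 2.54 CPM on high salt. Il1rn, which blocks the interleukin 1 receptor, was at 0.832, 0.817 and 1.07 CPM in normal diet libraries 1, 2 and 3, 50.9 CPM in library 4, and 0.515, 0.622, 1.21 and 0.442 CPM on high salt. Both were high in library 4 alone, 70.4 and 42.3 times the next library, and their diets otherwise overlapped, with log2 fold changes of -0.91 (SE 0.53) and -0.39 (SE 0.40) without it. Il1b, the interleukin 1 beta cytokine itself, was at 1.12, 1.14, 1.42 and 1.25 CPM in normal diet libraries 1, 2, 3 and 4 and at 0.817, 0.663, 1.23 and 0.724 CPM on high salt. Library 4 thus did not stand out in Il1b, and its fold change was the same with and without that library (log2 -0.52 with a SE of 0.28, and -0.52 with a SE of 0.30).

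Il6ra and Il6st, the binding and the signalling subunit of the interleukin 6 receptor, were the members with log2 fold changes above 0 with all 8 libraries, 0.27 (SE 0.43) and 0.16 (SE 0.29). Il6ra was at 14.6, 21.3, 44.3 and 52.8 CPM in normal diet libraries 1 to 4 and at 54.6, 55.2, 28.0 and 22.7 CPM on high salt. Il6st was at 49.4, 49.3, 95.8 and 111 CPM in normal diet libraries 1 to 4 and at 101, 96.1, 71.6 and 73.2 CPM on high salt. In both genes normal diet libraries 1 and 2, the ones with a low mitochondrial share, held the lowest values, and leaving them out turned the log2 fold changes to -0.27 for Il6ra and -0.28 for Il6st. Neither passed in any alternative tried.

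The other 3 receptors were high in library 4. Tlr2, which senses bacterial lipoproteins, was at 2.38, 1.96 and 1.60 CPM in normal diet libraries 1, 2 and 3, 75.8 CPM in library 4, and 1.53, 1.47, 1.48 and 1.34 CPM on high salt, without overlap between the diets. Cd14, the co-receptor for lipopolysaccharide, was at 0.927, 0.681 and 1.79 CPM in normal diet libraries 1, 2 and 3, 12.9 CPM in library 4, and 0.959, 1.10, 0.852 and 1.01 CPM on high salt. Il1r1, the signalling receptor of interleukin 1, was at 22.2, 46.2 and 58.8 CPM in normal diet libraries 1, 2 and 3, 253 CPM in library 4, and 26.4, 26.1, 50.8 and 12.9 CPM on high salt. Library 4 exceeded the next library 31.9-fold in Tlr2, 7.20-fold in Cd14 and 4.30-fold in Il1r1, and without it the log2 fold changes were -0.46, -0.21 and -0.55, with edgeR adjusted p from 0.218 to 0.706.

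The 4 intracellular response genes changed sign with library 4. Socs3, the feedback inhibitor of gp130 signalling, was at 6.30, 3.54 and 3.96 CPM in normal diet libraries 1, 2 and 3, 33.4 CPM in library 4, and 1.86, 1.80, 15.6 and 4.63 CPM on high salt. HS7 was the second highest library and HS6 the lowest, and the log2 fold change went from -0.99 (SE 0.88) to 0.37 (SE 0.72) without library 4. Steap4, a metalloreductase, was at 56.4, 96.4 and 83.3 CPM in normal diet libraries 1, 2 and 3, 1271 CPM in library 4, and 75.6, 73.7, 145 and 48.0 CPM on high salt, again with HS7 second. Its log2 fold change went from -2.14 to 0.11. Nfkbiz, a nuclear cofactor of NF-kB, and Cebpd, a C/EBP factor of the acute phase, held 44.8 and 7.33 CPM in library 4, against at most 4.74 and 1.44 CPM in the other 7 libraries. Their log2 fold changes went from -1.92 and -1.04 to 0.25 and 0.17, and none of these passed.

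S100a8 and S100a9 form calprotectin, the most abundant protein pair of neutrophil cytoplasm. S100a8 was at 0.214, 0.272 and 0.629 CPM in normal diet libraries 1, 2 and 3, 18.2 CPM in library 4, and 0.266, 0.249, 0.395 and 0.530 CPM on high salt. S100a9 was at 0.452, 0.654 and 0.409 CPM in normal diet libraries 1, 2 and 3, 31.7 CPM in library 4, and 0.515, 0.518, 0.395 and 0.777 CPM on high salt. Outside library 4 the diets overlapped in both genes, with log2 fold changes of -0.03 (SE 0.48) for S100a8 and 0.12 (SE 0.35) for S100a9. Neutrophil markers other than these (9 of 11 listed in the table, Mpo and Camp being absent) summed to 13.0 CPM in library 4 and to 1.20 to 2.23 CPM in the other liver libraries. The defining marker Ly6g had 11 counts in library 4 and at most 1 in each of the others, and Retnlg had 151 counts against at most 6. Elane was not highest in library 4, with 3 counts against 6 in HS8. Ngp hardly stood out, with 5 counts against 4 in normal diet library 1. The other neutrophil markers in the sum were highest in library 4. Macrophage markers (8 of 8) summed to 190.4 CPM in library 4 and 62.7 to 135 CPM elsewhere, with no marker at 0. Of these, Adgre1 (6.22 CPM, against 8.18 in normal diet library 3) and Timd4 (5.07 CPM, against 5.31 in HS5) were not highest in library 4. The part of these cells in the levels of the 32 genes was not tested.

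**Figure D3:**
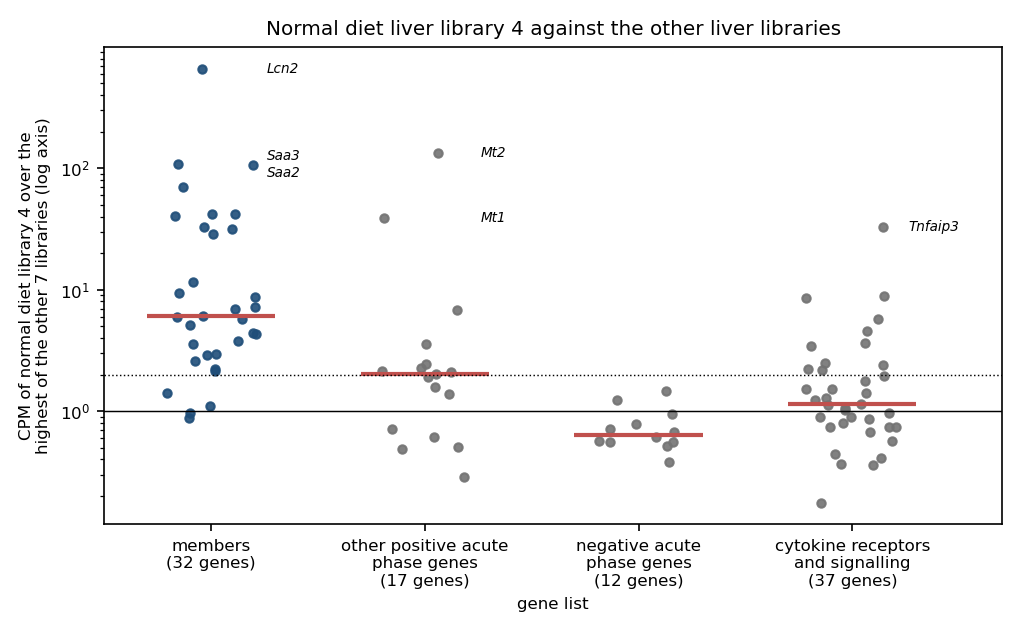
CPM of normal diet liver library 4 divided by the highest of the other 7 liver libraries (log axis), 1 point per gene, for the 32 genes and 3 further lists, with a bar at each median; the solid line marks equality and the dotted line 2-fold. The medians were 6.06 for the 32 genes, 2.02 for other positive acute phase genes, 0.641 for negative acute phase genes and 1.14 for cytokine receptors and signalling genes. The lists were chosen with earlier results of these data known, so the medians are a description.

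Outside the 32 genes, the highest ratios of library 4 to the next library among genes with a mean of 50 counts were those of the metallothionein Mt2 (134), Gm45774 (132), Ccl2 (40.5), Mt1 (39.0), Tnfaip3 (33.0), Alpk1 (13.6), Icam1 (10.5), Crybb3 (10.3), Cyp21a2-ps (10.1) and Zc3h12a (9.45). Gm45774 overlaps Mt2 on the other strand, and since strand is not stated for the counting, their reads cannot be told apart. Ccl2 is a monocyte chemokine, Icam1 an adhesion molecule, and Tnfaip3 and Zc3h12a are brakes on inflammatory signalling. The same 10 genes were chosen for this ratio, so it is given as a description.

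Of 17 further positive acute phase genes, such as the fibrinogen genes, C3 and the metallothioneins, 16 were tested and 0 passed with all 8 libraries, with a median log2 fold change of -0.61 and all 16 below 0. The lowest were Mt2 (-7.50), Mt1 (-6.25) and Fgl1 (-2.37), and the highest Slc39a14 (-0.38), Hamp (-0.12) and Mbl2 (-0.11). The median without library 4 was -0.35, and 13 of the 16 were below 0, where 50.2% of all genes were. Without library 4, Fgl1, a fibrinogen-like liver protein, fell by 1.50 (SE 0.25, edgeR adjusted p = 0.0338) and Mt1 by 2.47 (SE 0.26, edgeR adjusted p = 0.00929) on the log2 scale. Library 4 was over 2-fold above the next library in 9 of the 17. It was below the highest other library in Hamp (0.284 times), Serpina1d (0.492), Serpina1a (0.510), Serpina1b (0.618) and Mbl2 (0.719). The 12 negative acute phase genes, liver genes that fall in inflammation, had 0 called in either fit, and library 4 was over 2-fold above the next in none of them. With all 8 libraries the lowest log2 fold changes of that list were those of Tat (-0.81), Trf (-0.68) and Ahsg (-0.42), and the highest those of Serpina6 (0.15), Ttr (0.28) and Alb (0.76). The list's median was -0.18 with all 8 libraries and -0.30 without library 4, with 8 of 12 below 0 in both. Library 4 held Alb at 0.381 times the highest other library.

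Among 40 further cytokine receptor and signalling genes, 37 were listed in liver and 34 tested. Lifr, the receptor of leukemia inhibitory factor, was the only one called, with a mean of 397 ± 139 CPM in normal diet and 153 ± 29.9 CPM in high salt libraries (SD, 4 of each, log2 fold change -1.38, SE 0.27, edgeR adjusted p = 0.0483), and it fell by 1.57 without library 4 (SE 0.22, edgeR adjusted p = 0.0212). Its library 4 level was 0.410 times the highest other library. Beside Lifr, the lowest log2 fold changes with all 8 libraries were those of Tnfaip3 (-3.47) and Irak3 (-1.73), and the highest those of Rela (0.42), Ptpn11 (0.51) and Socs2 (0.53). Without library 4 they were 0.071 for Tnfaip3, 0.17 for Irak3, 0.75 for Rela, 0.55 for Ptpn11 and 0.66 for Socs2. Of the 34 tested, 23 were below 0 with all 8 libraries, where 52% of all genes were. Without library 4, 11 were, against 50.2% of all genes, and the list's median went from -0.21 to 0.16. Library 4 was over 2-fold above the next in 11 of the 37, namely Tnfaip3, Il1r2, Irak3, Relb, Nfkb2, Ier3, Bcl3, Nfkbia, Cebpb, Stat3 and Myd88. Il6, Osm and Lif were not in the liver table used here, and no value is given for them.

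Per kilobase of the longest protein-coding transcript, the order of levels differed between library 4 and the others. In normal diet libraries 1 to 3 the highest means were 4309 CPM per kb for Hpx, 2043 for Orm1 and 1929.6 for Hp, followed by Saa1 at 388. In library 4 Saa1 led with 26662 CPM per kb and Saa2 followed with 20089, ahead of Hpx at 14746 and Hp at 14516. Lcn2 went from a mean of 3.78 CPM per kb in libraries 1 to 3 to 3112 in library 4. On high salt Hpx led again with 1751 CPM per kb, and Saa1 was at 44.5.

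In kidney these genes were scarce, and no difference between the diets passed the test. The 25 genes in the kidney table took 0.0138% to 0.0239% of a library's counts, between 1 and 9 of them had fewer than 10 counts in a library, and 21 passed the filter on low counts. None of the 21 was called, as was none of all 15847 genes tested with edgeR (0%), while 13 kidney genes but no member passed in DESeq2. An unadjusted p under 0.05 was found for 1 member, S100a9, and for 2.01% of all genes. The median log2 fold change of the 21 was -0.017, against -0.025 over all genes, and 12 of the 21 were below 0, as were 53.7% of all genes. Saa1 and Il1rn were listed in the deposited kidney table of normalized values alone, Saa1 at 0 in 4 of 6 libraries and at most 3.62, and Il1rn at no more than 1.97. Saa2, Saa3, Orm2, Orm3 and Crp were not analysed in kidney.

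**Figure D4:**
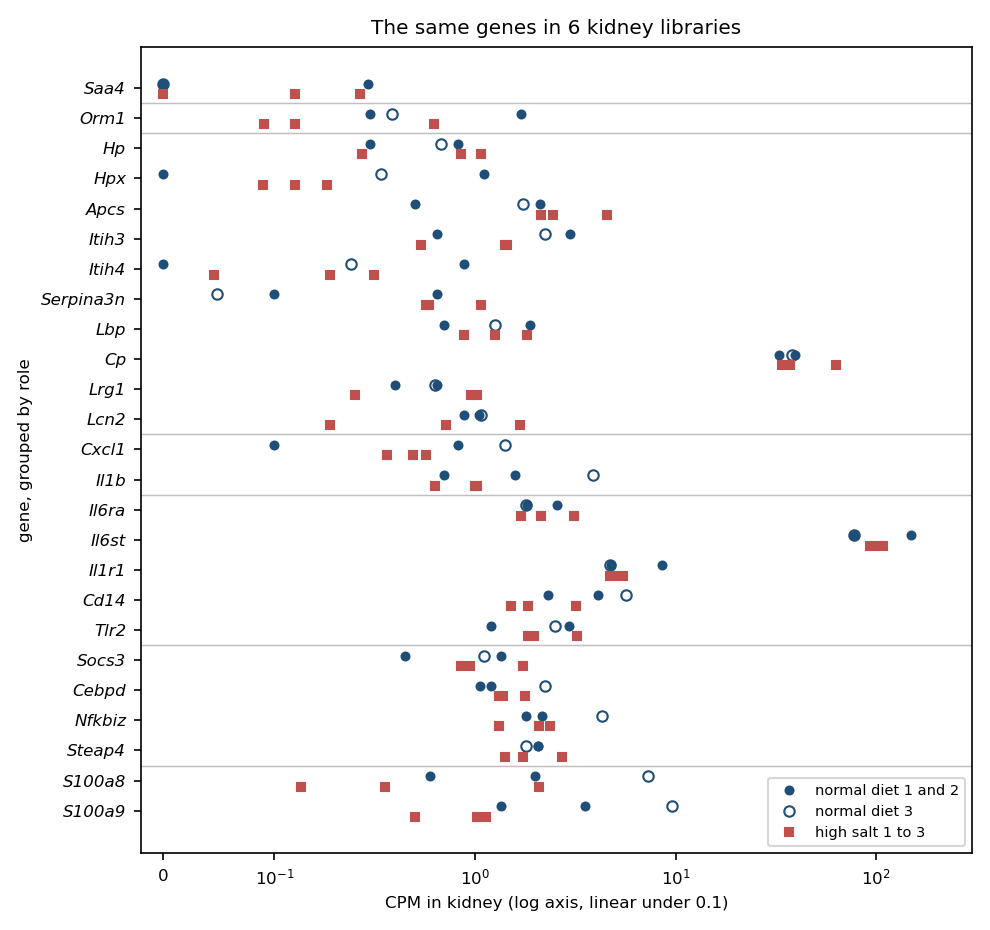
CPM of 25 of the genes in each of 6 kidney libraries (log axis, linear under 0.1), grouped by role; circles are normal diet libraries, with library 3 open, and squares are high salt libraries. Cp and Il6st lie above 30 CPM, all other genes under 10 CPM, and S100a8 and S100a9 are highest in normal diet library 3.

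Of the calprotectin genes, S100a9 was the 1 member with an unadjusted p under 0.05. It was at 1.35, 3.51 and 9.63 CPM in normal diet libraries 1, 2 and 3 and at 1.03, 1.13 and 0.500 CPM in high salt libraries 1, 2 and 3. The diets did not overlap, and the log2 fold change of -2.45 (SE 0.70) had an edgeR adjusted p of 1. S100a8 was at 0.600, 1.99 and 7.26 CPM in the normal diet libraries and 0.357, 2.08 and 0.136 CPM in the high salt ones, so the second high salt library lay among the normal diet ones (log2 fold change -2.01, SE 1.06). Normal diet library 3 was the highest kidney library in both, and also in Cxcl1, Il1b, Cd14, Cebpd and Nfkbiz, 7 of the 22 members with a mean of at least 10 counts, against 16.9% of all such genes. Neutrophil markers other than these (6 of the 11 listed in the kidney table, Ly6g not among them) summed to 2.21 to 4.55 CPM, highest in high salt library 3, where 3.50 CPM came from Itgam, an integrin that macrophages carry too. Without Itgam, a choice made after its values were seen, the other 5 summed to 1.30, 1.46 and 1.94 CPM in the normal diet libraries and 0.804, 1.13 and 1.05 CPM in the high salt ones, without overlap and again highest in normal diet library 3. Retnlg had 3, 2 and 7 counts in the normal diet libraries and 0 in each high salt library, and Csf3r 12, 16 and 11 against 5, 6 and 7 counts. Mmp8 leaned the other way, with 0, 2 and 1 against 3, 3 and 2 counts. The diets overlapped in Cxcr2 (2, 1 and 7 against 7, 2 and 6 counts) and Mmp9 (9, 4 and 14 against 3, 7 and 8 counts). The part of neutrophils in the S100a8 and S100a9 levels was not tested.

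Il1b was at 0.699, 1.58 and 3.87 CPM in normal diet and 1.03, 0.630 and 1.00 CPM in high salt kidneys (log2 fold change -1.20, SE 0.61). Cd14 was at 2.30, 4.10 and 5.66 CPM and 1.52, 1.83 and 3.18 CPM (log2 fold change -0.88, SE 0.42). In both genes the diets overlapped. Apcs lay higher on high salt, at 2.46, 4.54 and 2.14 CPM against 0.500, 2.11 and 1.74 CPM, without overlap but with a narrow gap between high salt library 3 and normal diet library 2 (log2 fold change 1.06, SE 0.53). Apcs and S100a9 were the 2 of 21 members whose diets did not overlap, against 6.92% of all kidney genes in either direction and 3.07% lower on high salt. Serpina3n was at 1.07, 0.567 and 0.591 CPM on high salt and 0.0999, 0.644 and 0.0484 CPM on the normal diet (log2 fold change 1.55, SE 0.82), and the edgeR adjusted p was 1 for each of these genes.

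Cp and Il6st were the members above 10 CPM in kidney. Cp was at 32.8, 39.1 and 37.9 CPM in normal diet libraries and 37.0, 33.9 and 63.3 CPM in high salt libraries, where the third library stood alone. Il6st was at 149.8, 77.1 and 77.0 CPM in normal diet libraries and 108, 93.3 and 97.3 CPM in high salt libraries, and its level per kilobase, 11.7 CPM per kb on the normal diet, stood beside 7.47 CPM per kb in normal diet liver libraries 1 to 3, in tables that were scaled separately. Lcn2, also known as a marker of injured kidney tubules, was at 1.05, 0.878 and 1.07 CPM and 0.715, 0.189 and 1.68 CPM on the 2 diets. Hp, Hpx, Orm1, Itih4 and Saa4, abundant in liver, did not exceed 1.70 CPM in any kidney library, and Saa4 had 0 counts in 3 of 6, which is only known to be under 3 counts. All of these but Hp were highest in normal diet library 2, as were Alb (35.7 CPM) and Cps1 (2.87 CPM). The cause was not tested.

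Whether the diet difference itself differed between the tissues was asked of the 14 libraries together, over genes in both tables. No gene of 16633 was called (0%), and none of the 25 members was, the smallest member adjusted p in edgeR being 0.309 for Lcn2 (log2 difference -9.08, SE 2.83). An unadjusted p under 0.05 was found for 7 members and for 10.1% of all genes. The liver fold change was the lower one in 21 of the 25, and in 48.4% of all genes. Saa4, Orm1, Hpx and Itih4 are among the 25, although they did not pass the low-count filter in kidney alone. They entered through their liver counts, so their kidney part rests on few counts. DESeq2 called 147 genes and no member. Without liver library 4 the liver fold change was the lower one in 11 of 25 members, against 47.6% of all genes. The members' median log2 difference then turned from -1.37 to 0.092 in edgeR. In that fit 3 genes (0.0181%, and 0.0121% with the lower fold change in liver) and 0 members were called, and S100a9 had the smallest member p, with a log2 difference of 2.56 (SE 0.82, edgeR adjusted p = 0.242). The standard errors of the 25 log2 differences ran from 0.42 for Il6st to 2.83 for Lcn2.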

How the data were processed

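RNA of 8 liver and 6 kidney samples was sequenced from SMARTer mRNA libraries, per the labels. The authors deposited expected counts per gene, estimated by expectation-maximisation in Partek per the file names; the submitters' processing notes also list Partek 7.0, STAR 2.5.3a, DESeq2 and mm10 without saying what each did. The annotation release, the strand setting and the filters are not given in the sources used here. A second pair of tables deposited by the authors holds a normalized signal for each gene, linear in scale, and how it was normalized is not given. Samples were grouped by the labelled tissue and diet, and 0 per-sample columns were left unused.

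Counts were rounded and tested with edgeR 4.0.16 (quasi-likelihood test, TMM scaling, filterByExpr) in R 4.3.3 over all genes of a tissue, with diet as the term, and an adjusted p-value under 0.05 was called. Fold changes and CPM use TMM library sizes. The interaction fit took the 17600 genes in both count tables. The fits were tested on simulated counts. Coordinates, transcripts and promoters come from GENCODE M21 and RefSeq, both GRCm38; the gene starts of all 32 members match the files. The alternatives tried were DESeq2 1.42.0, RLE scaling, upper quartile scaling, other filters, limma 3.58.1 on log2 of the deposited normalized values plus 1 or 0.1, removal of mitochondrial genes, a replicate block in kidney, and libraries left out or summed; the fit without liver libraries 1, 2 and 4 of the normal diet was chosen after seeing the data.

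The members and the further lists were chosen with earlier results of these data known. All members are named; of each further list, genes called in a tissue and the 3 lowest and 3 highest liver fold changes; and the 10 other genes highest in normal diet liver library 4 against the next library, with a mean of 50 counts. The human transgene was not analysed here. Depth is the total count per library, and replicate spread rather than counting error sets most standard errors.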

Additional observations from a re-analysis of the deposited data

Results flagged for a closer look

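In each group of 4 liver libraries, the gap between an extreme library and its neighbour was set against the range of the group and compared with Dixon's 95% critical value. Of 68 groups checked (32 genes and 2 library measures on 2 diets), 32 exceeded it. Chance gives about 1 in 20 of independent groups, but these genes share their libraries, and library 4 was known to stand apart when they were chosen, so the number is a description. Normal diet library 4 was the extreme library in 28 of the 32, always as the highest, and HS7 in the other 4. The share of counts held by the 32 genes was 8.88% in library 4. In CPM, library 4 stood apart in Saa1 (16237), Saa2 (13098), Saa3 (1414) and Saa4 (1925) among the serum amyloid A genes and in Orm1 (6613), Orm2 (1547) and Orm3 (56.4) among the orosomucoids. Among the other secreted proteins it stood apart in Hp (19524), Apcs (858), Itih3 (1351), Itih4 (2935), Serpina3n (1117), Lbp (563), Cp (2186), Lrg1 (768) and Lcn2 (2848). Of the ligands and receptors it stood apart in Cxcl1 (382), Il1rn (50.9), Il1r1 (253), Cd14 (12.9) and Tlr2 (75.8). Of the intracellular and S100 genes it stood apart in Socs3 (33.4), Cebpd (7.33), Nfkbiz (44.8), Steap4 (1271), S100a8 (18.2) and S100a9 (31.7). Hpx, Crp, Il1b, Il6ra and Il6st did not meet the criterion on the normal diet. On high salt, HS7 stood above the other 3 libraries in Saa3 (13.0 CPM), Orm1 (839 CPM), Hpx (3222 CPM) and Lbp (35.5 CPM). Neutrophil markers other than S100a8 and S100a9 summed to 13.0 CPM in library 4, against at most 2.23 CPM in the other liver libraries, and their part in these levels was not tested.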

How the results depend on the processing

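The liver result depends on which libraries enter. The number of members called was 0 with all 8 libraries, 5 in DESeq2, 1 without normal diet library 4 and with HS5 and HS6 summed, 0 with HS5 and HS6 summed alone, and 0 to 8 when 1 library was left out, with 8 without library 3 and 8 without library 4. The number of all liver genes called was 152, against 1094 in DESeq2, 52 and 31 in limma with pseudocounts of 1 and 0.1, 52 without normal diet libraries 1 and 2, 12 with HS5 and HS6 summed, 13 with that sum and without library 4, 9 without libraries 1, 2 and 4, and 12 to 765 with 1 library left out. The members' median log2 fold change was -2.05, and -2.29 to -0.51 with 1 library left out. It was -0.46 without library 4 and with HS5 and HS6 summed, and -0.55 without libraries 1, 2 and 4. In limma it was -1.33 and -1.34 with pseudocounts of 1 and 0.1. These 2 and the other settings stayed within 1.47 of -2.05, the SD of the members' median level between libraries of a diet. That is a wide mark, since it includes library 4. Signs turned as follows. Without library 4 the log2 fold changes were 0.17 for Cebpd, 0.25 for Nfkbiz, 0.37 for Socs3, 0.11 for Steap4 and 0.12 for S100a9. With HS5 and HS6 also summed they were 0.17 for Cebpd, 0.33 for Nfkbiz, 0.67 for Socs3, 0.18 for Steap4, 0.16 for S100a9, 0.091 for S100a8 and 0.0089 for Cp. Without libraries 1, 2 and 4 they were 0.68 for Cebpd, 0.59 for Socs3, 0.036 for Steap4, 0.43 for S100a9, 0.17 for Saa3, -0.14 for Il6ra and -0.17 for Il6st. Without libraries 1 and 2 they were -0.27 for Il6ra and -0.28 for Il6st, and Il6st was at -0.0059 without library 1 and -0.0012 without library 2. With 1 library left out, the range was -1.34 to 0.17 for Cebpd, -2.28 to 0.25 for Nfkbiz, -2.10 to 0.37 for Socs3, -2.52 to 0.11 for Steap4, -4.30 to 0.12 for S100a9 and -0.0059 to 0.39 for Il6st. None of these passed the test, and the cause was not tested. The kidney number was 0 genes and 0 members, with 13 genes in DESeq2, 27 in limma with a pseudocount of 0.1 and 0 whichever library was left out. The interaction number was 0 genes, with 147 in DESeq2, 2 with at least 10 counts in every library and 0 to 7 with 1 library left out (7 without HS7), and 0 members throughout. Of the 15 tested kidney members whose fold changes are not given, 12 changed sign in at least 1 of 15 alternatives.

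Pairing by replicate number was tried in kidney. The deviations of same-numbered libraries correlated at 0.53, 0.51 and -0.15, and those of differently numbered ones at -0.60 to 0.52. With so few libraries this cannot decide whether the numbers pair the samples. The replicate block called 0 genes and 0 members, with a members' median of 0.037. No paired analysis was possible in liver because the high salt columns carry numbers that match no title. Depth limits the scarce members, above all in kidney, where 0 counts cannot be told from any level under 3 counts.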
